A study of Schizosaccharomyces pombe with 6 samples.

Results

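Non-coding RNAs that were lower in nitrogen-starved *Schizosaccharomyces pombe* cells labelled *igo1*Δ than in wild-type (WT) cells are described here. They were chosen by their reads among the identifiers that begin with SPNCRNA. An identifier was taken when its mean over the 4 *igo1*Δ and WT libraries was at least 20 reads, when both *igo1*Δ-labelled libraries had a lower CPM (reads scaled to a common total of reads on genes) than both WT libraries, and when the mean CPM of WT was at least 1.5 times that of *igo1*Δ. Of 1529 such identifiers among 7001 genes, 699 had enough reads, 301 of these did not overlap between the groups in this direction, and 210 met all bounds and are called members below. The opposite rule, for RNAs higher in *igo1*Δ, was met by 175 identifiers.

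The libraries were made from h- cells kept for 4 hours in minimal medium without nitrogen at 25 °C, with 2 replicates each of 3 strains. The first (h- *nmt41*-GST-*pab1*-KanMx6 *igo1*::natMx6) carries the *igo1* replacement and expresses *pab1*, which encodes the B55 regulatory subunit of the phosphatase PP2A, from a promoter that thiamine shuts, and is called *pab1*-repressed. The second is labelled *igo1*Δ (h- *igo1*::kanMX6, with the genotype given as knockdown), in which the Endosulfine gene is replaced, and the third is WT (h- 972). The labels mention thiamine without saying for which strains and do not say whether replicates were separate cultures, so that p-values measure the spread between these libraries, and fewer cells with an RNA cannot be told apart from less RNA per cell.

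Long non-coding RNAs of fission yeast are transcribed by RNA polymerase II, often from the strand opposite a coding gene or upstream of one. Many are short-lived, because the nuclear exosome, guided by factors such as Mmi1 and the MTREC complex, or RNA interference removes them. Several are known for their part in the entry into mating and meiosis, which nitrogen starvation sets off, and others for silencing the gene that lies downstream of them.

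The checks of the strains limit what their labels can carry. *igo1* itself kept 2307 and 5035 reads in the *pab1*-repressed libraries and 1693 and 1478 in the *igo1*Δ-labelled libraries, against 1876 and 2098 in WT, so that every direction below rests on the label. *pab1* had 2296 and 1078 reads in the *pab1*-repressed libraries, 2182 and 1819 in those labelled *igo1*Δ, and 2853 and 3027 in WT, and was not called lower in the *pab1*-repressed libraries than in *igo1*Δ (limma, log2 fold change -0.73, standard error 0.33, adjusted p = 0.199). *nmt1*, whose promoter is shut by thiamine, had 66 and 49 reads in the *pab1*-repressed libraries, 146558 and 202812 in those labelled *igo1*Δ and 165916 and 197645 in WT, so that thiamine and *pab1* repression cannot be told apart. The libraries held 14791399 to 18809513 reads on genes. A list of 3 genes taken as markers of P cells, while h- cells are M cells, held *map2*, *mam3* and *map3* and summed to 226 to 388 CPM in the *pab1*-repressed libraries, 155 to 162 in those labelled *igo1*Δ and 734 to 753 in WT, with none at 0. Most of these reads lie on *mam3*, which is known as an agglutinin of M cells and so marks no P cell. *map2*, the P-factor gene, had 106 and 60 reads in the *pab1*-repressed libraries, 45 and 48 in *igo1*Δ, and 40 and 30 in WT. *map3* had 310 and 367, 184 and 214, and 224 and 276 reads in these groups. In *igo1*Δ over WT they went opposite ways, and edgeR's quasi-likelihood test called neither. The log2 fold change was 0.50 for *map2* (edgeR, adjusted p = 0.161) and -0.22 for *map3* (edgeR, adjusted p = 0.233). The part of these genes in the results was not tested.

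The members' summed level differed between the strains. They summed to 2977 and 3619 CPM in the *pab1*-repressed libraries, 853 and 704 CPM in the *igo1*Δ-labelled libraries, and 2121 and 2192 CPM in WT. Both *igo1*Δ-labelled libraries were therefore lowest and both *pab1*-repressed libraries highest. That *igo1*Δ lay below WT was fixed by the choice of members. That the *pab1*-repressed libraries lay above *igo1*Δ follows in part from this choice. Their place above WT was not fixed by the rule, but the share of all SPNCRNA identifiers was above WT in them too. The share of all SPNCRNA identifiers in the reads was 3.21 and 5.51% in the *pab1*-repressed libraries, 3.42 and 2.55% in those labelled *igo1*Δ and 2.06 and 2.20% in WT, so the *igo1*Δ-labelled libraries were not low in non-coding RNA in general.

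The ratio of WT to *igo1*Δ mean CPM, which chose the members, ran from 1.51 to 28.8 with a median of 2.12. It was at least 2 for 116 members, at least 3 for 59, at least 5 for 24 and at least 10 for 10. Members made up 30.0% of the 699 identifiers with enough reads, and 33.2% of the 5698 genes of any kind with enough reads passed the same bounds, so that the members' share was near that over all genes. The median log2 ratio of *igo1*Δ over WT CPM was -0.36 over these genes, -1.09 over the members and 0.27 over the 489 SPNCRNA identifiers with enough reads that are no members. With TMM scaling, which sets the typical gene level (median -0.02), the members' median was -0.77. All 210 members kept a ratio above 1 under TMM scaling. This followed from their choice on the same libraries, as the scaling moved the lowest ratio only from 1.51 to 1.19. Of them, 192 kept libraries that did not overlap and 135 still met the rule.

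**Figure D1:**
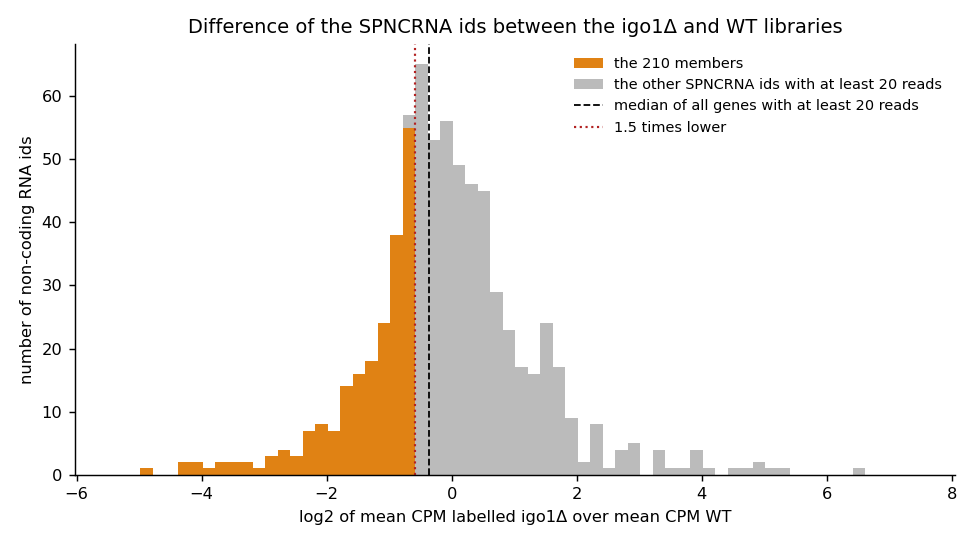
Histogram of the log2 ratio of mean CPM in the *igo1*Δ-labelled libraries over mean CPM in WT for the SPNCRNA identifiers with at least 20 reads; the members (orange) end at the dotted line of the 1.5-fold bound. The dashed line, the median of all genes with at least 20 reads, lies at -0.36 and not at 0.

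The bound of 1.5 cuts through a continuous range. Just inside it, SPNCRNA.1449 had 72 and 75 reads in the *igo1*Δ-labelled libraries against 101 and 87 in WT, a ratio of 1.51, and SPNCRNA.657 had 49 and 46 against 62 and 60, also 1.51. Just outside it, SPNCRNA.1356 had 36 and 32 reads in *igo1*Δ against 31 and 57 in WT, and SPNCRNA.1446 had 235 and 171 against 265 and 254. In CPM neither overlapped between the groups. At the bound on depth, SPNCRNA.1075 and SPNCRNA.190 were taken with a mean of 20 reads, and SPNCRNA.1470 and SPNCRNA.984 were left out with 19.5.

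The largest ratio belonged to *meu19* (SPNCRNA.29), one of the *meu* transcripts first listed for their rise in meiosis, which lies 33.1 kb from an end of chromosome III. It had 39 and 171 reads in the *pab1*-repressed libraries, 12 and 9 in those labelled *igo1*Δ, and 249 and 268 in WT, and WT was 28.8 times *igo1*Δ by CPM. *meu3* (SPNCRNA.07), another *meu* transcript, lies 42.0 kb from an end of the same chromosome and came next. It had 25 and 38 reads in the *pab1*-repressed libraries, 5 and 4 in *igo1*Δ, and 68 and 83 in WT, a ratio of 19.6. For both transcripts the *pab1*-repressed libraries lay between the other groups without overlap.

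SPNCRNA.1544 had 21 and 456 reads in the *pab1*-repressed libraries, 36 and 46 in *igo1*Δ, and 614 and 690 in WT, a ratio of 18.7. Replicate 1 of the *pab1*-repressed pair was thus below both *igo1*Δ-labelled libraries, and replicate 2 was above them. SPNCRNA.1278 had 132 and 591 reads in the *pab1*-repressed libraries, 50 and 72 in *igo1*Δ, and 722 and 790 in WT (ratio 14.6), so that both *pab1*-repressed libraries lay between the other groups. SPNCRNA.1069 had 86 and 469, 36 and 26, and 318 and 317 reads in the *pab1*-repressed, *igo1*Δ and WT libraries (ratio 12.0), and overlaps the member SPNCRNA.1068 of the opposite strand over 2169 bases. SPNCRNA.1246 had 14 and 79 reads in the *pab1*-repressed libraries, 14 and 9 in *igo1*Δ, and 105 and 132 in WT (ratio 12.0). Scaled with the deposited size factors, replicate 2 of the *pab1*-repressed pair was 25.7 times replicate 1 for SPNCRNA.1544, 5.30 times for SPNCRNA.1278, 6.46 times for SPNCRNA.1069 and 6.68 times for SPNCRNA.1246.

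Like *meu3*, 3 more of the RNAs with the largest ratios had fewer than 10 reads in each *igo1*Δ-labelled library. SPNCRNA.569 had 21 and 73 reads in the *pab1*-repressed libraries, 4 and 3 in *igo1*Δ, and 48 and 57 in WT (ratio 17.5). SPNCRNA.190 had 15 and 56 reads in the *pab1*-repressed libraries, 3 and 2 in *igo1*Δ, and 25 and 50 in WT (ratio 17.3), and with a mean of 20 reads it stood at the bound on depth. SPNCRNA.851 had 44 and 83, 6 and 7, and 70 and 67 reads in the *pab1*-repressed, *igo1*Δ and WT libraries (ratio 12.4). The *pab1*-repressed libraries lay above both *igo1*Δ libraries in all 3.

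SPNCRNA.1443 differed from the rest of these 10. It had 6571 and 8420 reads in the *pab1*-repressed libraries, 323 and 244 in those labelled *igo1*Δ, and 2775 and 3314 in WT. WT was 12.5 times *igo1*Δ by CPM, and the *pab1*-repressed libraries were above WT, at 168 and 254% of its mean in the deposited values. Among the 10 members with the largest ratio it was the only one in which both *pab1*-repressed libraries lay above both WT libraries. For the other 9, replicate 1 lay between 2.50 and 49.6% of the WT mean, and replicate 2 between 46.3 and 139%.

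**Figure D2:**
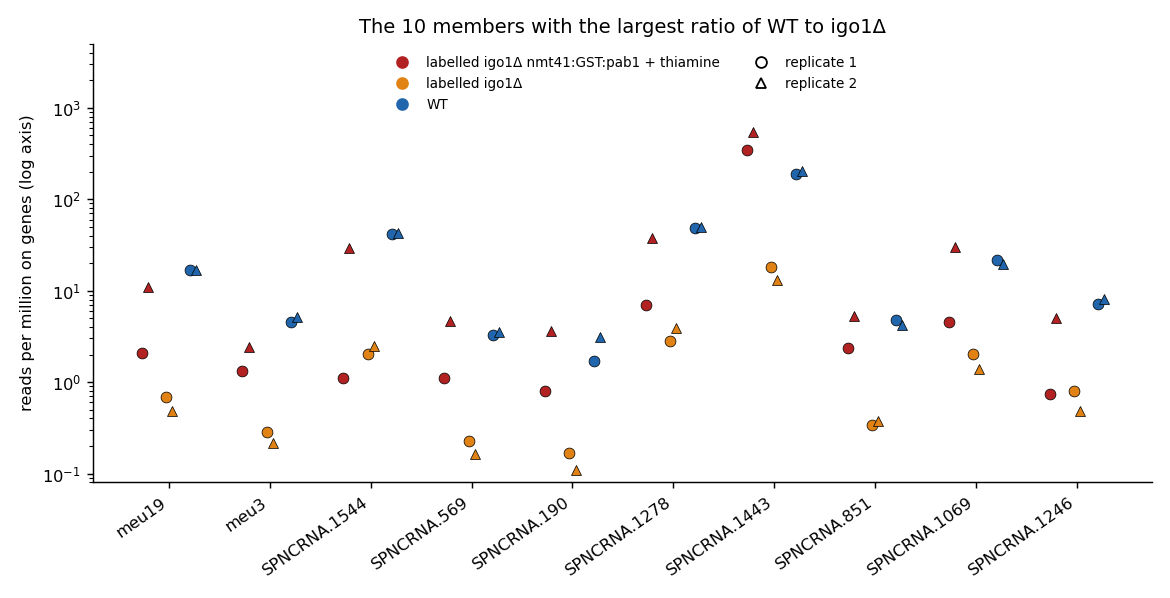
CPM on genes (log axis) of the 10 members with the largest WT to *igo1*Δ ratio, with 1 point a library: *pab1*-repressed (red), labelled *igo1*Δ (orange) and WT (blue), circles for replicate 1 and triangles for replicate 2. Among the red points, replicate 2 lies above replicate 1 for all 10.

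Per length, members were low: their WT level had a median of 3.62 CPM per kb over the 208 with a gene model, against 2.38 for the other SPNCRNA identifiers with enough reads and 38.7 for coding genes. Members were chosen as higher in WT, so their place above the other identifiers follows in part from the choice. In *igo1*Δ their median was 1.53. The member with the highest WT level was *omt3* (SPNCRNA.130), with 368 CPM per kb in the mean of the *pab1*-repressed libraries, 22.3 in *igo1*Δ and 139.6 in WT. It had 4242 and 7983 reads in the *pab1*-repressed libraries, 464 and 341 in *igo1*Δ, and 1963 and 2361 in WT, and the 3 groups did not overlap. SPNCRNA.1443 followed with 70.4 CPM per kb in WT, then *nc-tgp1* with 36.8, SPNCRNA.934 with 36.8, SPNCRNA.920 with 30.1, the small nucleolar RNA SPNCRNA.1709 with 28.5, SPNCRNA.1334 with 26.8 and SPNCRNA.1548 with 26.5. The WT to *igo1*Δ ratio of SPNCRNA.1548 was 9.22. SPNCRNA.1334 had 61 and 195 reads in the *pab1*-repressed libraries, overlapping the 85 and 59 in *igo1*Δ, against 286 and 335 in WT.

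*omt3* lies 76 bases downstream of another member on the same strand, SPNCRNA.993, which in turn lies 156 bases from the divergent *mei2* on the opposite strand. SPNCRNA.993 had 107 and 108 reads in the *pab1*-repressed libraries, 6 and 9 in *igo1*Δ, and 48 and 61 in WT, and was named here after its values were seen. *mei2*, the RNA-binding protein that starts meiosis, had 54717 and 58262 reads in the *pab1*-repressed libraries, 1198 and 877 in *igo1*Δ, and 28527 and 31534 in WT. All 3 transcripts had the same order of groups, with *pab1*-repressed highest and *igo1*Δ lowest and no overlap. The coding gene on the other side, *omt2*, had 127 and 363 reads in the *pab1*-repressed libraries, 128 and 85 in *igo1*Δ, and 454 and 441 in WT. It was lower in *igo1*Δ than in WT by edgeR's quasi-likelihood test (log2 fold change -1.98, standard error 0.18, adjusted p = 2.73e-05), but its *pab1*-repressed libraries lay below WT.

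The window from 250 bases before to 50 after the start of SPNCRNA.993 held 4 copies of the motif TTCTTTGTT, read on the opposite strand as AACAAAGAA. This is a form of the TR-box bound by Ste11, the transcription factor that opens mating and meiosis, and *mei2* is a known target of Ste11. Counted from their first base, the copies lay at -225, -199, -27 and -5 from the start. Only 156 bases part the gene models of SPNCRNA.993 and *mei2*, so the copies at -225 and -199 lie inside that of *mei2*. The window, from the RefSeq ASM294v3 assembly (chromosome I, plus strand), is shown because it covers the space between SPNCRNA.993 and *mei2*, which had the same order of groups, with the motif in capitals.
SPNCRNA.993: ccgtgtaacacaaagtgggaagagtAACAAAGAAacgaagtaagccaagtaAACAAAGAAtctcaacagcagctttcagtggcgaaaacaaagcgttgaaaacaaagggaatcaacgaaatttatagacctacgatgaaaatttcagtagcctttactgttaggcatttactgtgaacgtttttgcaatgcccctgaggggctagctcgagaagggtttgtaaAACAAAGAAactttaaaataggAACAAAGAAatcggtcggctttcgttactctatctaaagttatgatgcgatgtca

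A single copy of this motif on either strand was found in the same window of 5 further members, so that 6 of 208 members held it (2.88%), against 2.07% of 483 other SPNCRNA identifiers with enough reads and 1.88% of all 12643 gene windows. The stretches around these copies are given 5′ to 3′ on the member's strand from the same assembly, with the motif in capitals, so that they can be set beside the window above.
SPNCRNA.569: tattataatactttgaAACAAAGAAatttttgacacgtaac
SPNCRNA.769: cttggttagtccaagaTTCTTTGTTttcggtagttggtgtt
SPNCRNA.58: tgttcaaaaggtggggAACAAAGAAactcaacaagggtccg
SPNCRNA.1115: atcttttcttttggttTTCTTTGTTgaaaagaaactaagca
SPNCRNA.846: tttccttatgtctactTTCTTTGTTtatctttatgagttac

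Counted from its first base, the match lay 90 bases before the start of SPNCRNA.569, 213 before SPNCRNA.769, 27 before *prl58* (SPNCRNA.58), 193 before SPNCRNA.1115 and 227 before SPNCRNA.846. Their WT to *igo1*Δ ratios ran from 1.65 for SPNCRNA.846 to 17.5 for SPNCRNA.569. The other motifs were also searched on both strands. ACGCGT, the MBF motif, was in 2.88% of members, 2.28% of the other SPNCRNA identifiers and 2.45% of all windows. TGACGT (Atf1) was in 6.73, 8.28 and 5.47% of these sets, GTAAACA (forkhead) in 14.4, 11.8 and 13.0%, GATAAG (zinc-finger factors of nitrogen and iron use) in 12.0, 13.7 and 12.0%, and TATAAA, a core promoter motif, in 47.6, 43.7 and 45.2%. Shares in members were within a few points of both backgrounds, and none of these was tested. A match says only that the letters are there.

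*sme2* (SPNCRNA.103) gives meiRNA, the RNA that binds Mei2 and draws Mmi1 away from meiotic transcripts. It had 299 and 1183 reads in the *pab1*-repressed libraries, 157 and 118 in *igo1*Δ, and 208 and 287 in WT, a ratio of 2.09. Scaled to CPM, replicate 1 of the *pab1*-repressed pair (15.9) lay between the WT libraries (14.1 and 17.9) and replicate 2 (75.6) above them. Mmi1 reads clusters of the hexamers TTAAAC or TCAAAC or TGAAAC in the RNA. They were counted after the values were seen, on the RNA's own strand only: members held a median of 1.43 per kb and the other SPNCRNA identifiers with enough reads 1.10, with at least 1 in 86.5 and 79.5% of them. *sme2* held 7 in 1562 bases, or 4.48 per kb, and of the members only SPNCRNA.943 with 5.44 and SPNCRNA.1404 with 4.81 held more per kb. The 200 bases of it with the most, from base 1362 to base 1561 of the gene model on chromosome II, held 5 and are shown with the hexamers in capitals.
sme2: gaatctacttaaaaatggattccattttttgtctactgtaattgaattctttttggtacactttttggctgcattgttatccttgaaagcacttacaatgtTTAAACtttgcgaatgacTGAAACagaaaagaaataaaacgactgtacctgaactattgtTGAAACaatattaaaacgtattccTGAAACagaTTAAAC

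The ratios of the other members with a symbol ran from 1.52 to 3.38. *nc-tgp1* (SPNCRNA.1698), whose transcription is known to repress the phosphate-responsive gene *tgp1* downstream of it, had 4361 and 3221 reads in the *pab1*-repressed libraries, 726 and 642 in *igo1*Δ, and 981 and 1184 in WT, a ratio of 1.85. *tgp1*, a transporter of glycerophosphodiesters on the same strand with which it shares 77 bases, had 23467 and 13824, 2194 and 2305, and 14679 and 17638 reads in these groups. It was lower in *igo1*Δ than in WT (edgeR's quasi-likelihood test, log2 fold change -2.74, standard error 0.10, adjusted p = 1.85e-07), so the RNA and the gene were both lowest in *igo1*Δ. How reads in shared bases were assigned is not stated.

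The *prl* transcripts are polyadenylated RNAs without a long open reading frame. *prl58* had 85 and 332 reads in the *pab1*-repressed libraries, 20 and 18 in *igo1*Δ, and 48 and 62 in WT (ratio 3.38). *prl43* (SPNCRNA.43) had 53 and 47 reads in the *pab1*-repressed libraries, 31 and 18 in *igo1*Δ, and 53 and 55 in WT (ratio 2.57), and limma did not call its *pab1*-repressed libraries different from WT (log2 fold change -0.35, standard error 0.30, adjusted p = 0.564). *prl59* (SPNCRNA.59) had 144 and 114, 96 and 75, and 137 and 146 reads in these groups (ratio 1.94). Scaled to CPM, the *pab1*-repressed libraries of both lay between the other groups without overlap: for *prl43* they had 2.82 and 3.01 CPM, against 1.75 and 0.97 in *igo1*Δ and 3.58 and 3.42 in WT. *nc-tco1* (SPNCRNA.600) and *snoZ* (SPNCRNA.659) were near the bound, with ratios of 1.62 and 1.52. *nc-tco1* had 96 and 52 reads in the *pab1*-repressed libraries, 44 and 40 in *igo1*Δ, and 46 and 71 in WT.

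The comparison of the *pab1*-repressed libraries with those labelled *igo1*Δ asked where the members stand when *pab1* is repressed on top of the *igo1* replacement. It shares its *igo1*Δ libraries with the rule, so a lean of the members to higher values follows in part from their choice, and it shares the *pab1*-repressed libraries with the comparison against WT. Of 210 members, all tested, limma called 21 higher (10%, against 2.91% of all 6046 genes tested) and 0 lower (6.12% of all genes), at an adjusted p under 0.05. At limma's unadjusted p under 0.05, 83 were higher and 1 lower. Over all 6046 genes 832 and 1097 were, and over the 752 other SPNCRNA identifiers tested 96 and 111. With edgeR on recovered reads 19 and 0 members were called (2.97 and 5.18% of all genes), and with DESeq2 65 and 0 (9.28 and 12.0%). The median log2 fold change of the members was 1.05, with 194 above 0, against 0.00 over all genes and 0.11 over the 752 other SPNCRNA identifiers tested, of which 14 were called higher and 48 lower. Both *pab1*-repressed libraries lay above both *igo1*Δ-labelled libraries for 144 members, and below for 3, where 32.9 and 34.3% of all genes did.

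**Figure D3:**
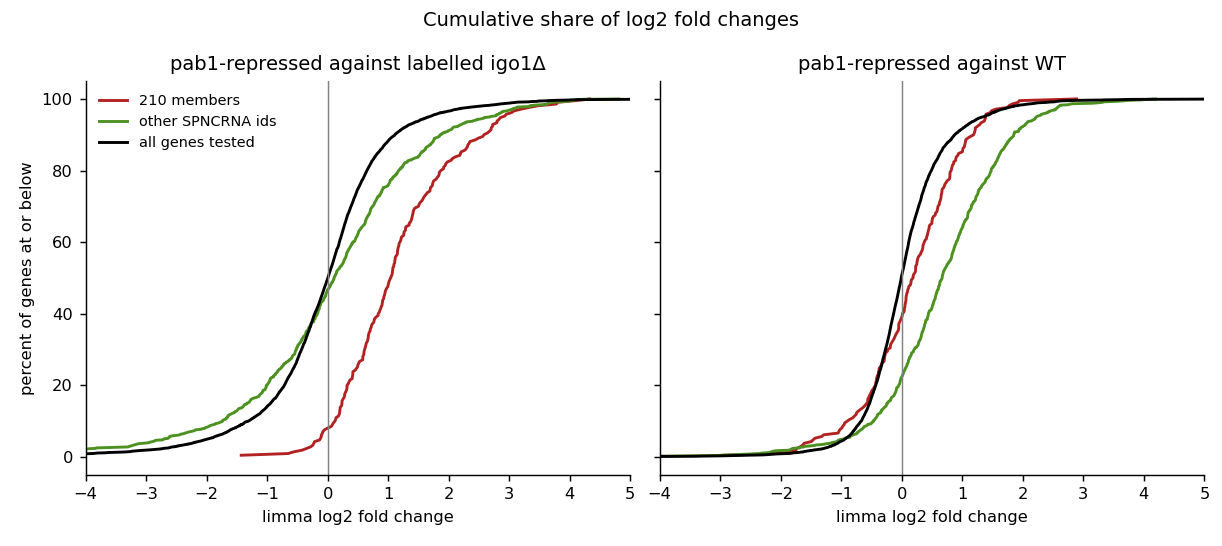
Cumulative percent of genes by limma log2 fold change of the *pab1*-repressed over the *igo1*Δ-labelled libraries (left) and over WT (right), for the members (red), the other SPNCRNA identifiers (green) and all genes tested (black). The red curve crosses 50% at 1.05 on the left and at 0.19 on the right.

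SPNCRNA.1443 had the largest rise, a log2 fold change of 4.33 (standard error 0.27, limma, adjusted p = 0.00684). SPNCRNA.301 came next with 140 and 110 reads in the *pab1*-repressed libraries, 10 and 2 in *igo1*Δ, and 44 and 36 in WT, a log2 fold change of 4.10 (standard error 0.76, limma, adjusted p = 0.0449). SPNCRNA.860, which no gene model of the reference matched, had 917 and 330 reads in the *pab1*-repressed libraries, 43 and 20 in *igo1*Δ, and 53 and 72 in WT. Its log2 fold change was 3.79 (standard error 0.58, limma, adjusted p = 0.0304). SPNCRNA.1415 had 131 and 776 reads in the *pab1*-repressed libraries, 19 and 15 in *igo1*Δ, and 61 and 79 in WT, and was not called at a log2 fold change of 3.78 and a standard error of 0.96 (limma, adjusted p = 0.0783).

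Among the other members described above, limma also called *omt3* (log2 fold change 3.47, standard error 0.42, adjusted p = 0.0200), SPNCRNA.993 (3.33), SPNCRNA.1548 (2.85), *nc-tgp1* (2.06, standard error 0.18, adjusted p = 0.0105) and SPNCRNA.675 (2.27, adjusted p = 0.0489) higher. SPNCRNA.1126, which overlaps the ribosome factor gene *ria1* on the opposite strand, had 366 and 351 reads in the *pab1*-repressed libraries, 29 and 29 in *igo1*Δ, and 79 and 79 in WT, and its log2 fold change was 3.20 (standard error 0.30, limma, adjusted p = 0.0126). SPNCRNA.1560, opposite *rsv1* and *rbd3*, had 335 and 479, 34 and 44, and 108 and 83 reads in these groups, and its log2 fold change was 2.95 (standard error 0.40, limma, adjusted p = 0.0235). Of the 10 members with the largest WT to *igo1*Δ ratio, SPNCRNA.1443 was the only one that limma called.

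At the other end, SPNCRNA.1594 had 30 and 29 reads in the *pab1*-repressed libraries, 58 and 66 in *igo1*Δ, and 88 and 71 in WT, so that the *pab1*-repressed libraries were lowest. Its log2 fold change against *igo1*Δ was -1.43 (standard error 0.41, limma, adjusted p = 0.0948). SPNCRNA.1301 had 6 and 58 reads in the *pab1*-repressed libraries, 30 and 19 in *igo1*Δ, and 45 and 47 in WT (log2 fold change -0.65, standard error 1.18). SPNCRNA.438 had 172 and 144, 183 and 171, and 203 and 267 reads in the *pab1*-repressed, *igo1*Δ and WT libraries, a log2 fold change of -0.56 with a standard error of 0.25. SPNCRNA.1124 had 8 and 98, 32 and 28, and 84 and 85 reads in these groups, a log2 fold change of -0.42 with a standard error of 1.27. None of the 4 was called by limma.

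The count of 21 depended on single libraries. Without replicate 1 of *igo1*Δ it fell to 4, with 0 called lower (0.561% of all genes higher and 1.47% lower), and without replicate 2 to 8, with 0 lower (0.825 and 1.67%). Leaving out *pab1*-repressed replicate 1, 127 members were called higher and 3 lower, where 30.7 and 33.4% of all genes were. Leaving out replicate 2, 125 of the 206 members then tested were higher and 10 lower, where 25.3 and 30.4% of all genes were, and in both fits the lone library is assumed to vary like the *igo1*Δ pair. With all 6 libraries in one fit, 74 members were higher and 1 lower (12.4 and 15.4% of all genes). Calls over all genes thus moved with the same libraries as those of the members. A restriction to the 135 members that also meet the rule with TMM-scaled CPM was added after seeing the data. Of these, limma called 19 higher and 0 lower (2.91 and 6.12% of all genes), and the median log2 fold change was 1.29. At an unadjusted p under 0.05 limma had 68 and 0, against 832 and 1097 of all 6046 genes.

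Against WT, limma called 0 members higher and 0 lower, as it called 0 of 6035 genes higher (0.0%) and 2 lower (0.0331%). At limma's unadjusted p under 0.05, 25 members were higher and 7 lower. Over all 6035 genes 532 and 576 were, and over the 747 other SPNCRNA identifiers tested 150 and 13. With edgeR 0 members were called in either direction (0.0% of all genes higher and 0.0331% lower). With DESeq2 11 were higher and 0 lower (3.27 and 2.58% of all genes). The members' median log2 fold change was 0.19 with 128 above 0, against -0.01 over all genes and 0.67 over the 747 other SPNCRNA identifiers tested. As the WT libraries also chose the members, their lower median beside the other identifiers follows in part from the choice. Both *pab1*-repressed libraries lay above both WT libraries for 73 members (34.8%, against 27.8% of all genes and 51.9% of the other SPNCRNA identifiers) and below both for 31 (14.8%, against 28.2 and 8.30%). The members thus lay between all genes and the other non-coding RNAs in the first share and also in the second. All 73 were also above both *igo1*Δ libraries (18.3% of all genes), a further 56 were above *igo1*Δ and overlapped WT (10.9%), 15 lay between the groups (3.92%), and 66 were not above both *igo1*Δ libraries (66.8%). As both *igo1*Δ and WT libraries chose the members, nothing is read from these shares.

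The largest differences above WT were at SPNCRNA.860 (log2 fold change 2.89, standard error 0.49), SPNCRNA.1415 (1.94, standard error 1.02), SPNCRNA.1126 (1.92, standard error 0.22) and SPNCRNA.1560 (1.82, standard error 0.38). The largest below WT were at SPNCRNA.1544 (-2.94, standard error 1.64), SPNCRNA.1246 (-2.02, standard error 0.98), *meu19* (-1.89, standard error 0.85) and SPNCRNA.1124 (-1.75, standard error 1.33). In each of the 4 below WT, replicate 1 of the *pab1*-repressed pair had fewer reads than replicate 2. None passed limma's adjusted threshold. Leaving out *pab1*-repressed replicate 1, limma called 71 members higher and 38 lower (33.8 and 36.2% of all genes), and leaving out replicate 2 it called 77 and 46 (29.9 and 30.9%), again with the lone library assumed to vary like the WT pair.

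The *pab1*-repressed replicates differed from each other by more than the other pairs did. Over the members, the median size of the log2 difference between replicates was 0.75 in the *pab1*-repressed pair, against 0.32 in *igo1*Δ and 0.19 in WT, and 80, 11 and 0 members were over 2-fold apart. Over all genes tested the *pab1*-repressed pair had a median of 0.47. The rule asked that the *igo1*Δ and WT libraries not overlap, which limits the spread within these pairs but not within the *pab1*-repressed pair. The members' smaller spread in *igo1*Δ and WT thus follows in part from their choice. Over all genes, the chi-square per gene against sampling noise was 418 in the *pab1*-repressed pair, 40.1 in *igo1*Δ and 9.26 in WT. The difference within the *pab1*-repressed pair had no common direction: replicate 1 was the higher for 105 of the 210. Replicate 1 lay below both WT libraries and replicate 2 above both for 34 members (16.2%, against 14.8% of all genes), and the reverse held for 33 (15.7%, against 16.5%), so that both shares were near those over all genes. SPNCRNA.657 had 150 and 18 reads in the *pab1*-repressed libraries, 49 and 46 in *igo1*Δ, and 62 and 60 in WT, the opposite order of replicates to SPNCRNA.1544.

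**Figure D4:**
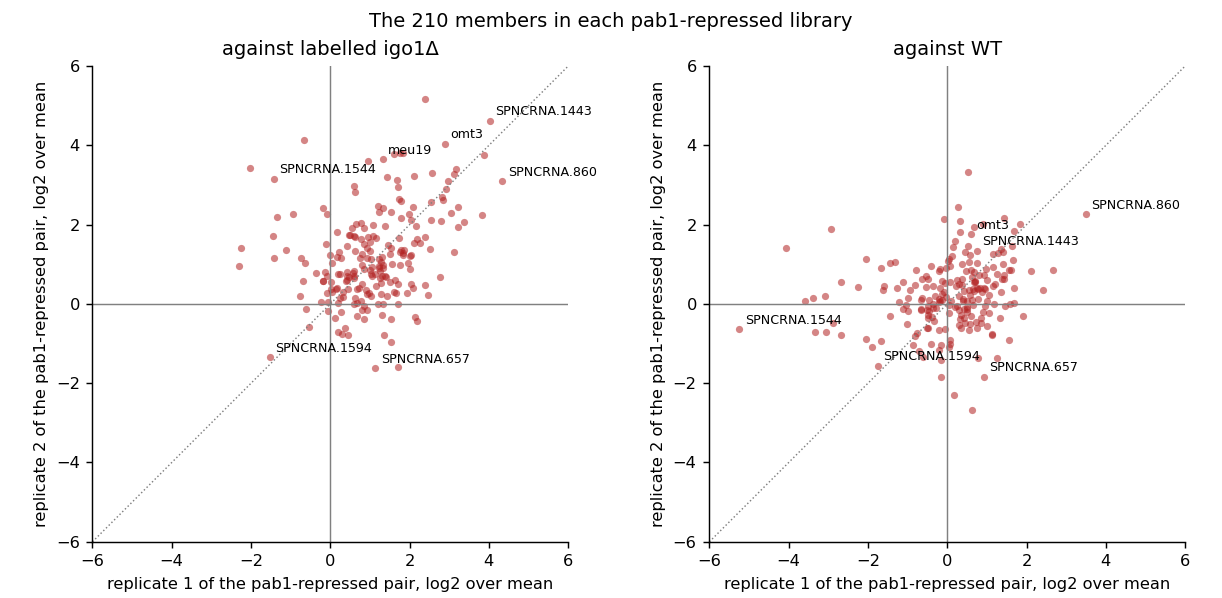
Each member in replicate 1 (x axis) and replicate 2 (y axis) of the *pab1*-repressed pair, as log2 of the deposited value + 1 over the mean of the *igo1*Δ-labelled libraries (left) or of WT (right). Most points lie above 0 on both axes on the left, while on the right they scatter around 0, with SPNCRNA.1544 far to the left and SPNCRNA.657 below.

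Members were spread over the genome like the other SPNCRNA identifiers with enough reads: 93, 76 and 39 of the matched members lay on chromosomes I, II and III (44.7, 36.5 and 18.8%, against 44.9, 36.9 and 18.2% of the others). Their gene models had a median length of 1452.5 bases, against 1542 in the others. Within 100 kb of a chromosome end lay 8 members (3.85%) and 35 others (7.25%). Of the 8, 6 lay on chromosome III, among them SPNCRNA.1299 at 3.38 kb with a ratio of 6.51, *meu19*, *meu3* and SPNCRNA.1292. There were 6 pairs of neighbouring members less than 1000 bases apart, and 4 of them overlap on opposite strands.

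By position, 142 members (67.6%) overlapped a coding gene on the opposite strand only, 12 (5.71%) on the same strand only and 13 (6.19%) on both, 38 (18.1%) overlapped none but lay within 1000 bases of one, 3 lay farther away and 2 had no gene model. The shares of the other identifiers were 63.6, 5.73, 10.4 and 17.2% for the first 4 classes. Whether the counting used the strand is not stated, so that reads of a member and of the gene opposite it cannot be told apart with certainty. The 22 members that lie wholly inside a coding gene of the other strand, and overlap none on their own, had 3.38 to 78.6% of that gene's WT reads per base, with a median of 12.9%, and for all 145 such SPNCRNA identifiers the median was 1.87%. The 145 had to pass no bound on reads, and the members were chosen as higher in WT. Nothing is therefore read from the distance between these medians.

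The coding genes that overlap members were compared between *igo1*Δ and WT with edgeR's quasi-likelihood test on recovered reads. Of 212 tested, 50 were higher and 69 lower in *igo1*Δ at an adjusted p under 0.05 (23.6 and 32.5%). Over all 5931 genes tested 29.6% were higher and 30.1% lower, and over all 4969 coding genes 29.4 and 32.5%. Of the 497 coding genes that overlap other SPNCRNA identifiers with enough reads, 33.2% were higher and 33.2% lower. The 191 on the opposite strand split into 47 higher and 59 lower with a median log2 fold change of -0.12, and the 23 on the same strand into 4 higher and 10 lower, median -0.16. With upper-quartile scaling the split of the 212 was 39 higher and 97 lower. The share over all genes under this scaling is not given, so nothing is read from that split. With TMM scaling, members whose opposite gene was higher had a median log2 *igo1*Δ to WT ratio of -0.74. It was -0.76 where the opposite gene was lower and -0.66 where it was not called. The rule bounded the members' ratios, so the closeness of these medians follows in part from the choice and nothing is read from it.

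The largest differences of opposite genes went both ways. *mfm3*, one of the M-factor pheromone genes, had 5259 and 1627 reads in the *pab1*-repressed libraries, 21 and 12 in *igo1*Δ, and 1281 and 1199 in WT, a log2 fold change of -6.13 in *igo1*Δ over WT (standard error 0.19, edgeR, adjusted p = 7.21e-08). SPNCRNA.1381, which overlaps it over 337 bases on the opposite strand, had 148 and 242, 111 and 116, and 151 and 181 reads in these groups, a ratio of 1.71. *rgs1*, the regulator that dampens pheromone signalling, had 2176 and 2407 reads in the *pab1*-repressed libraries, 162 and 146 in *igo1*Δ, and 2231 and 2557 in WT (log2 fold change -3.86, standard error 0.09, edgeR, adjusted p = 3.09e-08). SPNCRNA.675 opposite it had 86 and 94, 13 and 14, and 49 and 46 reads, a ratio of 4.14, so that RNA and gene were both lowest in *igo1*Δ.

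2 more members overlap genes of sexual differentiation on the opposite strand. SPNCRNA.1026 lies wholly within *fus1*, the formin of cell fusion, over 3205 bases, and had 40 and 27 reads in the *pab1*-repressed libraries, 15 and 18 in *igo1*Δ, and 23 and 29 in WT. *fus1* was lower in *igo1*Δ (log2 fold change -0.81, standard error 0.10, edgeR, adjusted p = 0.000188). SPNCRNA.674 overlaps *byr1*, the MAP kinase kinase of the pheromone pathway, which did not pass the test (log2 fold change -0.00, standard error 0.07, edgeR, adjusted p = 0.968), and had a ratio of 1.72. Opposite SPNCRNA.1246, *adg3* was also lower (log2 fold change -2.61, standard error 0.10, edgeR, adjusted p = 2.74e-07).

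In the other direction, *cta3*, a cation-transporting ATPase, had 2380 and 6009 reads in the *pab1*-repressed libraries, 65523 and 73250 in *igo1*Δ, and 531 and 523 in WT (log2 fold change 7.14, standard error 0.18, edgeR, adjusted p = 4.17e-08). SPNCRNA.1374, which lies wholly within it on the opposite strand, had 607 and 203, 154 and 182, and 269 and 248 reads in these groups. SPNCRNA.1292 had 246 and 124 reads in the *pab1*-repressed libraries, 66 and 75 in *igo1*Δ, and 298 and 283 in WT, and SPCC70.08c opposite it had 203 and 123, 11697 and 12455, and 205 and 230 (log2 fold change 5.90, standard error 0.11, edgeR, adjusted p = 1.67e-08). SPNCRNA.1140 had 219 and 61, 11 and 9, and 63 and 48 reads, and *ser3*, an enzyme of serine synthesis that shares 390 bases with it, 2555 and 1337, 14687 and 16431, and 1647 and 1920 (log2 fold change 3.23, standard error 0.11, edgeR, adjusted p = 1.41e-07). SPNCRNA.859 had 403 and 211, 136 and 150, and 239 and 202 reads, and the ammonium transporter gene *amt3* opposite it 61 and 140, 1362 and 1373, and 88 and 66 (log2 fold change 4.25, standard error 0.15, edgeR, adjusted p = 1.45e-07). In these 4 pairs, named after their values were seen, the RNA was lowest and the gene highest in the *igo1*Δ-labelled libraries. That the RNA lay below WT was fixed by the rule. With TMM scaling SPNCRNA.1374 (log2 ratio -0.52) and SPNCRNA.859 (-0.53) fell short of the 1.5-fold bound. Among RNAs named above, so did *nc-tgp1* (-0.56), SPNCRNA.1381 (-0.44), SPNCRNA.1026 (-0.54) and SPNCRNA.674 (-0.46). The bound was also missed by SPNCRNA.1709 (-0.36), *nc-tco1* (-0.36), *snoZ* (-0.29), SPNCRNA.1594 (-0.26) and SPNCRNA.438 (-0.30). SPNCRNA.1449 (-0.26), SPNCRNA.657 (-0.26), SPNCRNA.846 (-0.40), SPNCRNA.1115 (-0.46) and SPNCRNA.1404 (-0.40) missed it as well.

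**Figure D5:**
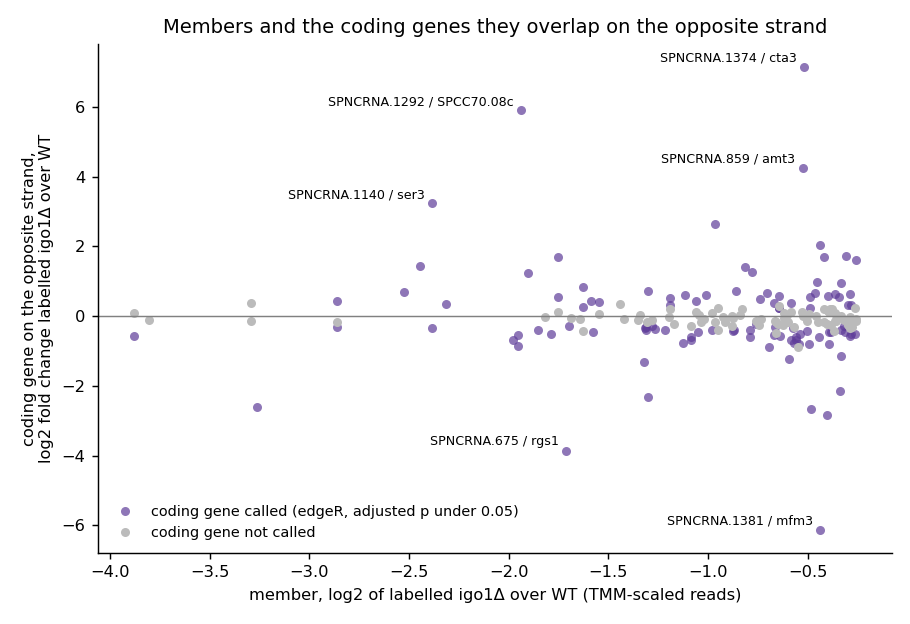
Log2 fold change in *igo1*Δ over WT of each coding gene that overlaps a member on the opposite strand (y axis, edgeR) against the member's own log2 ratio with TMM scaling (x axis), with 1 point a pair; called genes are violet and others grey. Members lie below 0 on the x axis by their choice, and the called genes lie on both sides of 0, with pairs over 3 named.

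The genes beside other members with the largest ratios were higher, lower or not called. Opposite SPNCRNA.1544, *lac1* was lower (log2 fold change -0.56, standard error 0.07, edgeR, adjusted p = 0.000188) and *syf2* was not called (0.10, adjusted p = 0.647). Opposite SPNCRNA.569, *trm734* was not called (-0.10, standard error 0.07, edgeR, adjusted p = 0.252), although it covers the whole RNA. *rpl26*, a ribosomal protein gene 540 bases from SPNCRNA.1443, was higher in *igo1*Δ (log2 fold change 1.46, standard error 0.11). Near *meu3*, *nic1* was higher (log2 fold change 0.80), and near *meu19* SPCC569.06 was lower (log2 fold change -0.39), both called by edgeR.

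Genes that remove RNA were read from a list of nuclear exosome, MTREC, Mmi1, TRAMP, exonuclease, RNA interference and CCR4-NOT genes, with 36 names for 35 genes, all of them tested. edgeR called 8 higher and 12 lower in *igo1*Δ than in WT (22.9 and 34.3%, against 29.6 and 30.1% of all genes), with a median log2 fold change of -0.07. *mei2*, listed for its hold on Mmi1, was the lowest (-4.76, standard error 0.15, edgeR, adjusted p = 8.23e-08). Next came the exosome subunit *rrp42* (-0.68, standard error 0.09) and *pir2*, the Ars2 homolog (-0.55, standard error 0.09). The highest were the exosome subunit *mtr3* (0.75, standard error 0.08) and the poly(A) polymerase *cid14* (0.64, standard error 0.07), and *mmi1* was higher (0.32, standard error 0.11, edgeR, adjusted p = 0.0312). With upper-quartile scaling the split was 4 higher and 16 lower, and with all 6 libraries in one fit 1 and 1. The shares over all genes in these fits are not given, so nothing is read from these counts.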

How the data were processed

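The authors counted reads per gene and deposited a normalized signal, reads divided by DESeq2 size factors, in 2 tables, scaled separately: *pab1*-repressed with *igo1*Δ, and *pab1*-repressed with WT. The submitters' processing notes name FastQC 0.11.8, Trimmomatic 0.38, HISAT2 2.1.0, featureCounts (Subread 1.6.3) and the ASM294v2 build. The library kit marks the strand, but the strand setting and the treatment of reads with several matches are not given in the sources used here. Each deposited column is a multiple of its lowest value above 0, and division by it returned whole reads (within 0.01) for 100% of the values, with identical reads for the *pab1*-repressed libraries in both tables. All value columns belong to samples of the series.

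For *igo1*Δ and WT the recovered reads went into edgeR 4.0.16 (TMM, quasi-likelihood test, mean of at least 10 reads). The *pab1*-repressed libraries were compared within each table with limma 3.58.1 (mean-variance trend) on log2(value + 1), where the mean was at least 10, so that fold changes understate those of low genes. Tests were two-sided, with Benjamini-Hochberg adjustment over all genes and a threshold of 0.05. The code was also run on simulated reads with the same spread in both groups. The wider spread of the *pab1*-repressed pair was not simulated, so that run does not show how the tests behave on it. No test of *igo1*Δ against WT is given for the members, since the rule used it. An exact permutation test of 2 libraries against 2 cannot give a two-sided p below 0.333. No replicate pair was as close as sampling noise alone would make it (chi-square per gene of 418 in *pab1*-repressed, 40.1 in *igo1*Δ and 9.26 in WT), so each library counted once.

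Gene names, lengths, positions and sequences come from RefSeq's ASM294v3 assembly, to which 6863 of 7001 identifiers and 208 of 210 members matched, 2 of them by synonym. As the builds differ, no coordinates are given. A coding gene sharing at least 1 base with a member was taken as overlapping, otherwise the nearest within 1000 bases. The members and lists were chosen with earlier results of these data known. Named are the 10 largest ratios, the 8 highest WT levels per length, the 2 RNAs on either side of the bound, the 4 largest and 4 lowest log2 fold changes per comparison, members with a symbol or overlapping a sexual differentiation gene, and their partners. The genome steps ran in Python 3.11.15 with pandas 2.3.3.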

Additional observations from a re-analysis of the deposited data

How the results depend on the processing

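The number of members moved with the bounds: 135 with TMM-scaled CPM, 278 with a minimum of 10 reads, 123 with a minimum of 50 reads and 116 with a fold of 2, in place of 210, and from 179 to 276 with each library left out in turn. Against *igo1*Δ, limma's 21 members higher and 0 lower became 65 with DESeq2 and 74 higher and 1 lower with all 6 libraries in one fit, and leaving out each library gave from 4 to 127 higher and from 0 to 10 lower. Against WT, 0 and 0 became 11 higher with DESeq2 and 3 higher with all 6 libraries, and leaving out each library gave from 0 to 77 higher and from 0 to 46 lower. The cause was not tested. For the coding genes and the decay list below, the shares over all genes under each alternative are not given, so nothing is read from those counts. Of the coding genes overlapping members, 17 were higher and 11 lower with all 6 libraries in one fit, in place of 50 and 69, and 33 and 42 overlapped the members that meet the rule with TMM-scaled CPM, which are fewer. Leaving out each library gave 39 to 55 higher and 51 to 80 lower. In the RNA decay list 1 gene was higher and 1 lower with all 6 libraries in one fit, 4 were higher with upper-quartile scaling, and leaving out each library gave 3 to 9 higher and 9 to 14 lower, in place of 8 and 12.

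The medians kept their direction in every fit run. For the members they ranged from 0.92 to 1.29 against *igo1*Δ and from 0.15 to 0.30 against WT. Among single genes named here, 1554 of the values under alternatives kept the main call, 94 lost and 126 gained one, and 7 turned round past the threshold, each with a *pab1*-repressed library left out. Without replicate 1 and without replicate 2, the log2 fold change against *igo1*Δ was 3.18 and -1.41 for SPNCRNA.1544, -1.62 and 1.14 for SPNCRNA.657 and 1.41 and -2.25 for SPNCRNA.1124. Against WT it was 0.44 and -2.24 for SPNCRNA.1069, -0.34 and 0.43 for SPNCRNA.1548, -1.83 and 0.92 for SPNCRNA.657 and 0.42 and -0.53 for SPNCRNA.1381.

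With the replicate number as a block, 25 members were called higher and 0 lower against *igo1*Δ, and 0 in either direction against WT. In that fit 52 overlapping coding genes were higher and 76 lower, and the decay list gave 8 and 12. The shares over all genes with this block are not given, so nothing is read from these counts. Replicates share only a number: the correlation of deviations between same-numbered libraries was 0.02, 0.12 and 0.13 over 6031 genes. Members with few reads are limited by depth, the median of the members' mean WT reads being 81.8.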
